A study of Mus musculus with 18 samples.

Results

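The 38 genes described here encode proteins that fold, modify and clear newly made proteins in the endoplasmic reticulum (ER), together with genes of the unfolded protein response. They were chosen by name, with earlier results of these data known. The set holds 11 ER chaperones and co-chaperones, 4 disulfide isomerases, 6 stress sensors and transcription factors, 7 genes of ER-associated degradation, 7 genes for the collagen chaperone and the collagen hydroxylases, and 3 targets of the transcription factor ATF4. All 38 were found among the 35727 gene IDs of the deposited table, and all 38 were among the 14864 genes with enough counts to be tested. RNA was sequenced from cultured mouse cells in 18 libraries, which the labels place in 6 groups of 3: control fibroblasts of heart, control fibroblasts of lung, and the iECs and native endothelial cells (ECs) of each of the 2 organs. iEC, left unexplained by the labels, is used in the field for cells induced towards an endothelial state, and the titles of these libraries read SEG instead. No strain, genotype, age or inducing agent is named for any group. All groups shared EGM2, a growth medium for endothelial cells, and were taken at day 7, and the series set out to compare how far iECs take on endothelial features of their organ. The labels do not say whether the 3 libraries of a group came from separate animals or cultures, so p-values measure only the spread between these libraries, which may be technical.

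Secreted and membrane proteins enter the ER unfolded. Chaperones such as BiP (Hspa5) and GRP94 (Hsp90b1) hold them while they fold, protein disulfide isomerases join their cysteines, and proteins that fail to fold are sent back to the cytosol for degradation. Unfolded proteins switch on the sensors IRE1 (Ern1), PERK (Eif2ak3) and ATF6, which raise the transcription of chaperone, degradation and amino acid metabolism genes through XBP1, cleaved ATF6 and ATF4. Fibroblasts make much collagen, whose chains need proline and lysine hydroxylation and a chaperone of their own, HSP47 (Serpinh1), before they leave the ER.

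Library totals ranged from 17747632 to 23775372 estimated counts, so that a lone count in the smallest library is worth 0.0563 CPM, or counts in the library scaled to a fixed total. Levels below are CPM scaled by TMM, a correction for library composition, and changes are log2 differences of groups ± SE from edgeR with 3 libraries per group. A gene is called changed at a Benjamini-Hochberg adjusted p under 0.05 over all genes tested, which is the p given throughout. Replicates of a group had a Pearson's r of 0.9754 to 0.9894 in log2 CPM. The summed level of 8 endothelial markers averaged 238 CPM in heart fibroblasts, 1220 in heart iECs, 1653 in heart ECs, 18 in lung fibroblasts, 1069 in lung iECs and 2570 in lung ECs. Lung iECs held Cdh5 at 465 CPM and Kdr at 272, but Pecam1 at 7.13, Vwf at 3.73 and Cldn5 at 0.416. Markers of other cells were present: 8 fibroblast markers summed to between 5592 and 43116 CPM in every library, and 10 macrophage and leukocyte markers summed to between 211 and 355 CPM in heart fibroblasts and heart ECs but to between 7826 and 9940 in lung ECs.

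Together the 38 genes held 1.31% of all scaled counts in heart fibroblasts, 1.35% in heart iECs, 1.65% in heart ECs, 1.68% in lung fibroblasts, 1.12% in lung iECs and 1.23% in lung ECs. Their summed level was 13124 ± 232 CPM in heart fibroblasts (SD, n = 3) and 16764 ± 858 CPM in lung fibroblasts. The control cells of the 2 organs thus differed in level at day 7, and no earlier level was measured. Lung fibroblasts held the highest of the 6 group means for 13 of the 38 genes, and lung iECs for 0 of them. The lowest group mean fell to lung ECs for 12 genes, to lung iECs for 11 and to heart fibroblasts for 11.

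**Figure D1:**
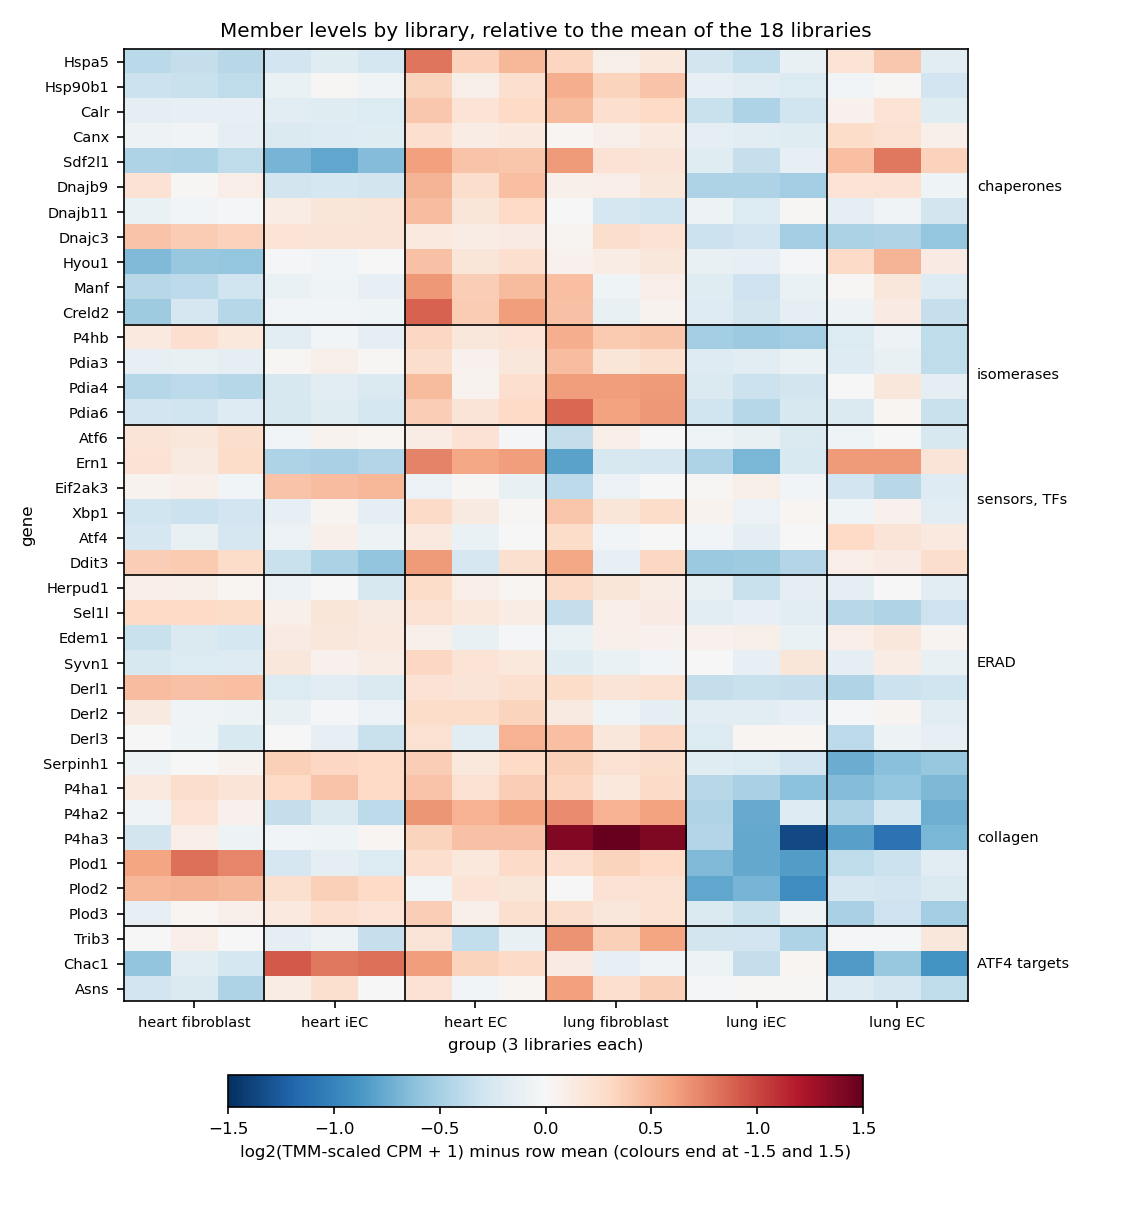
Level of each of the 38 genes in the 18 libraries (columns, 3 per group), as log2 of TMM-scaled CPM plus a pseudocount of 1 minus the gene's mean over all libraries (colour). Rows are ordered by role. Lung fibroblasts stand high in the isomerase and collagen rows, and lung iECs and lung ECs stand low in the collagen rows.

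In the heart, native ECs differed from fibroblasts by higher levels of most of the 38 genes, while iECs did not differ in one common direction. Heart ECs had 24 genes higher and 4 lower, against 24.2% and 23.3% of all genes tested, with a median change of 0.30 (0.00 over all genes). Heart iECs had 9 higher and 9 lower (26.0% and 24.6% of all genes tested), which is 47.4% of the 38 against 50.7% of all genes, with a median of 0.04 (0.02 over all genes). In a fit to the libraries of heart iECs and heart fibroblasts alone, 18 of the 38 were higher and 15 lower. Of all 13599 genes tested in that fit, 4409 were higher and 4354 lower. Mesothelial markers were higher in heart ECs in 6 of 6 cases, at 355 to 521 CPM in sum against 50.8 to 69.3 in heart fibroblasts, with none at 0 throughout. In heart iECs 5 of the 6 were lower and 1 higher, and their sum was 4.05 to 5.53 CPM. Fibroblast markers were lower in heart ECs in 6 of 8 cases, at 20176 to 21122 CPM in sum against 29239 to 30608 in heart fibroblasts, and in heart iECs in 7 of 8, at 17807 to 19379 CPM. The part of these markers in the results was not tested. In bulk RNA, fewer cells of a type and less RNA per cell cannot be told apart.

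In the lung, most of the 38 genes stood lower in iECs and in ECs than in fibroblasts. Lung iECs had 0 of the 38 higher and 25 lower than lung fibroblasts (edgeR; 25.9% and 24.7% of all genes tested), and the medians were −0.44 for the set and 0.00 for all genes. At an unadjusted p under 0.05 the count was again 0 higher, with 27 lower, and DESeq2 also called 0 higher and 25 lower. Lung ECs had 1 higher and 22 lower (29.3% and 28.7%), with medians of −0.35 and 0.00. Fibroblast markers moved with these results, with 8 of 8 lower in lung iECs and 7 of 8 lower in lung ECs, and summed levels of 35217 to 43116 CPM in lung fibroblasts, 11145 to 15006 in lung iECs and 5592 to 6837 in lung ECs. Macrophage and leukocyte markers moved too, with 10 of 10 higher in both, at 1062 to 1418 CPM in lung fibroblasts, 2514 to 3945 in lung iECs and 7826 to 9940 in lung ECs, and none of the 10 was at 0 in every library. The 5 tested epithelial markers were higher in lung ECs, with a sum of 250 to 290 CPM. Mesothelial markers summed to 266 to 278 CPM in lung fibroblasts, 17.8 to 25.3 in lung iECs, where 5 of 6 were lower, and 202 to 323 in lung ECs, where 4 were lower and 1 higher. Their part in the results was not tested. The libraries compared with fibroblasts did not overlap them for 34 of the 38 genes in heart iECs (65.1% of all genes tested), 29 in heart ECs (62.1%), 28 in lung iECs (54.5%) and 22 in lung ECs (58.4%).

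The fibroblasts themselves differed between organs: 21 of the 38 were higher and 7 lower in lung than in heart (24.6% and 23.9% of all genes tested; median 0.29 against 0.01). Markers of other cells differed between the same 2 groups: 10 of 10 macrophage and leukocyte markers were higher in lung fibroblasts, at 1062 to 1418 CPM in sum against 211 to 243, and so were 6 of 6 mesothelial markers, at 266 to 278 CPM against 50.8 to 69.3. Endothelial markers were lower there in 7 of 8 cases. Of the fibroblast markers 2 were higher and 4 lower, while their sum was 35217 to 43116 CPM against 29239 to 30608. The part of these markers in the difference was not tested. Lung ECs were lower than heart ECs in 27 and higher in 0 (23.7% and 24.2%), where an unadjusted p under 0.05 gave 30 lower and 1 higher and DESeq2 called 27 lower and 1 higher. Lung iECs were lower than heart iECs in 13 and higher in 1 (18.9% in each direction). Within an organ, heart iECs were lower than heart ECs in 21 and higher in 2 (24.4% and 24.5%), and lung iECs were lower than lung ECs in 14 and higher in 6 (23.0% and 22.2%). Comparisons that use the same group share its 3 libraries, so their counts are not independent.

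The split between directions depended on the scaling. With library totals in place of TMM, the median change of all genes became 0.21 in heart iECs (0.02 under TMM), 0.12 in heart ECs (0.00), 0.16 in lung iECs (0.00) and 0.12 in lung ECs (0.00) against the fibroblasts of their organ. It became 0.15 in lung against heart fibroblasts (0.01), 0.10 in lung against heart iECs (−0.02) and 0.16 in lung against heart ECs (0.02). The 38 genes then split into 19 higher and 5 lower in heart iECs, against 5772 and 2551 of the 14864 genes tested. Heart ECs had 26 higher and 2 lower (4630 and 2432 of all genes), lung iECs 3 and 22 (5296 and 2550), and lung ECs 6 and 20 (5333 and 3431). Lung fibroblasts then had 25 higher and 2 lower than heart fibroblasts (4974 and 2507 of all genes). Lung ECs had 3 higher and 18 lower than heart ECs (5104 and 2612). Directions given below are on the TMM scale.

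The genes whose calls changed under library totals were as follows. In heart iECs against fibroblasts Dnajc3, P4ha2, P4hb and Plod2 were no longer lower, and Hspa5, Creld2, Dnajb11, Manf, Pdia3, Pdia4, Pdia6, Atf4, P4ha1 and Plod3 were called higher. In heart ECs Dnajc3 and Derl1 were no longer lower, and Atf4 and P4ha1 were called higher. In lung iECs Canx, Manf and Xbp1 were no longer lower, and Dnajb11, Eif2ak3 and Syvn1 were called higher. In lung ECs Calr and Herpud1 were no longer lower, and Canx, Hyou1, Sdf2l1, Atf4 and Edem1 were called higher. Between the fibroblasts of the organs Dnajc3, Atf6, Derl1, Sel1l and Plod2 were no longer lower in lung, and Herpud1, Syvn1, P4ha1 and Chac1 were called higher. Between the ECs of the organs Hspa5, Hsp90b1, Calr, Dnajb9, Pdia4, Eif2ak3, Herpud1, Syvn1 and Asns were no longer lower in lung, and Canx, Atf4 and Edem1 were called higher. Between the iECs of the organs Dnajb9, Dnajb11 and Sel1l were no longer lower in lung. Heart iECs were no longer lower than heart ECs for Xbp1, Herpud1 and P4ha3 and were called higher for Edem1 and Plod2. The difference between the lung and heart changes became called, and more negative in lung, for Atf4 in iECs and Dnajb9 in ECs.

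**Figure D2:**
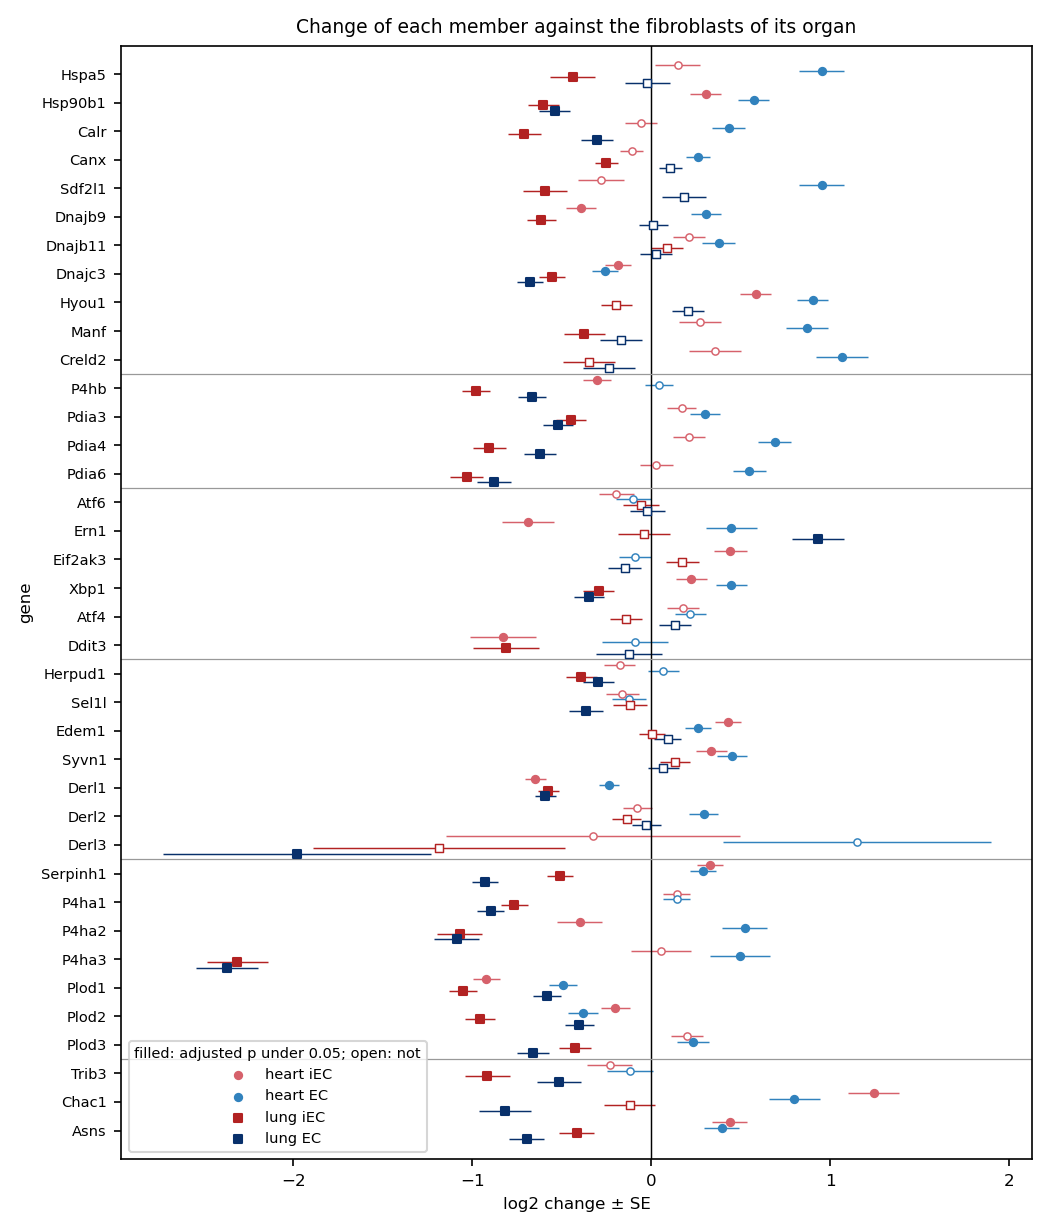
Log2 change of each of the 38 genes against the fibroblasts of the same organ (horizontal axis; bars, ± SE; filled points, adjusted p under 0.05), for heart and lung iECs and ECs. In heart ECs 24 points are called to the right of 0, and in lung iECs 25 are called to the left and 0 to the right.

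The 11 chaperones and co-chaperones were higher in heart ECs than in heart fibroblasts in 10 cases (24.2% of all genes tested). The exception was Dnajc3, which inhibits PERK and assists BiP. Dnajc3 had −0.26 ± 0.0726 there (adjusted p = 0.0068), and −0.15 under library totals (adjusted p = 0.107). Heart iECs had 2 higher and 2 lower than fibroblasts (26.0% and 24.6% of all genes tested), and 9 of the 11 were called below heart ECs (24.4%). In lung iECs 8 of 11 fell and 0 rose (24.7% and 25.9%), and in lung ECs 3 fell and 0 rose (28.7% and 29.3%). The summed chaperone level was 4814 ± 58.0 CPM in heart fibroblasts (SD, n = 3), 5154 ± 90.4 in heart iECs and 7131 ± 702 in heart ECs, and it was 6759 ± 422 in lung fibroblasts, 4781 ± 163 in lung iECs and 5839 ± 749 in lung ECs. Under library totals heart iECs had 6 chaperones higher and 1 lower, lung iECs 1 higher and 6 lower, and lung ECs 3 higher and 2 lower.

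Hspa5 (ENSMUSG00000026864; chromosome 2, 34772090 to 34776529 on GRCm38) encodes BiP, the HSP70 of the ER lumen. It stood at 995, 1025 and 990 CPM in heart fibroblasts, 1074, 1161 and 1099 in heart iECs and 2290, 1670 and 1859 in heart ECs. The 3 heart groups did not overlap, but only the ECs were called above fibroblasts, at 0.95 ± 0.127 (adjusted p = 7.61e-06), while iECs lay 0.15 ± 0.126 above them (adjusted p = 0.349, and 0.00713 in a fit to the 2 groups alone). Library totals put heart iECs 0.33 above fibroblasts (adjusted p = 0.0184). In the lung Hspa5 stood at 1649, 1394 and 1468 CPM in fibroblasts, 1087, 1019 and 1222 in iECs and 1516, 1749 and 1176 in ECs. All lung iEC libraries lay below all fibroblast libraries (−0.44 ± 0.126, adjusted p = 0.00727), whereas ECs overlapped them (−0.02 ± 0.126, adjusted p = 0.893). Its call in lung against heart ECs (−0.39 ± 0.126, adjusted p = 0.016) was lost without heart EC replicate 1 (adjusted p = 0.123) or lung EC replicate 3 (adjusted p = 0.0927), and under library totals (adjusted p = 0.0723).

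Calr and Canx encode calreticulin and calnexin, the chaperones that bind the sugars of new glycoproteins. Calr stood at 1186, 1201 and 1196 CPM in heart fibroblasts, 1170, 1145 and 1128 in heart iECs and 1731, 1501 and 1604 in heart ECs. Heart ECs lay above both other groups, 0.43 ± 0.0903 over fibroblasts (adjusted p = 0.000715), while heart iECs lay just below fibroblasts and were not called (adjusted p = 0.622). In the lung Calr stood at 1813, 1548 and 1598 CPM in fibroblasts, 1030, 945 and 1061 in iECs and 1367, 1505 and 1153 in ECs. No lung groups overlapped, and Calr fell by 0.71 ± 0.0905 in iECs (adjusted p = 3.16e-06). Its fall in lung ECs (−0.30 ± 0.0901, adjusted p = 0.00795) was lost without lung EC replicate 3 (adjusted p = 0.0535), in a fit to the 2 groups alone (adjusted p = 0.0881) and under library totals (adjusted p = 0.0516). Canx changed less: it rose by 0.26 ± 0.0664 in heart ECs (adjusted p = 0.00372) and had −0.25 ± 0.0664 in lung iECs (adjusted p = 0.00414), the latter not called in a fit to the 2 groups alone (adjusted p = 0.0555) or under library totals (adjusted p = 0.253).

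Sdf2l1 and Creld2 encode ER proteins that assist chaperones and are known to be induced by ER stress. Sdf2l1 (ENSMUSG00000022769; chromosome 16, 17130138 to 17132383) stood at 22.9, 22.7 and 24.2 CPM in heart fibroblasts, 19.3, 18.2 and 19.9 in heart iECs and 49.2, 43.1 and 42.8 in heart ECs. The iECs lay lowest and the ECs highest with no overlap, which left iECs 1.24 ± 0.126 below ECs (adjusted p = 2.21e-07). Its lung levels were 50.2, 37.2 and 36.6 CPM in fibroblasts, 28.0, 24.9 and 29.2 in iECs and 44.1, 55.8 and 40.6 in ECs. Lung iECs again lay below both other groups, at −0.59 ± 0.124 against fibroblasts (adjusted p = 0.000599) and −0.78 ± 0.124 against ECs (adjusted p = 5.1e-05), and fibroblasts and ECs overlapped. Sdf2l1 was the only chaperone higher in lung than in heart iECs (0.52 ± 0.126, adjusted p = 0.00321).

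Creld2 (ENSMUSG00000023272; chromosome 15, 88819646 to 88826681) stood at 34.3, 41.9 and 36.9 CPM in heart fibroblasts, 48.4, 48.7 and 47.7 in heart iECs and 93.1, 65.3 and 77.9 in heart ECs. The 3 heart groups did not overlap, and ECs were 1.06 ± 0.146 above fibroblasts (adjusted p = 1.28e-05). Heart iECs lay 0.36 above fibroblasts (adjusted p = 0.0504), on either side of the threshold among the alternatives, with 0.0404 in DESeq2, 0.0391 without heart fibroblast replicate 2 and 0.00252 under library totals. In the lung Creld2 stood at 67.9, 46.1 and 51.7 CPM in fibroblasts, 43.4, 41.0 and 45.5 in iECs and 47.2, 54.3 and 39.0 in ECs. Lung iECs lay just below the fibroblasts without overlap, and ECs overlapped both. Neither change against lung fibroblasts was called (adjusted p = 0.0537 for iECs and 0.172 for ECs), though iECs passed without lung fibroblast replicate 2 (adjusted p = 0.0171).

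Hyou1, an ER chaperone of the HSP110 family, rose in both heart groups. It stood at 162, 173 and 172 CPM in heart fibroblasts, 254, 251 and 256 in heart iECs and 350, 292 and 306 in heart ECs, with no overlap. The changes against fibroblasts were 0.58 ± 0.0875 in iECs (adjusted p = 1.95e-05) and 0.90 ± 0.0879 in ECs (adjusted p = 1.72e-07). Its lung levels were 268, 277 and 289 CPM in fibroblasts, 239, 237 and 252 in iECs and 313, 368 and 280 in ECs. Lung iECs lay below the fibroblasts without overlap but were not called (adjusted p = 0.0693), and lung ECs overlapped them (adjusted p = 0.0519, with 0.0174 in DESeq2, 0.00637 without lung EC replicate 3 and 0.00152 under library totals). Dnajb9, which binds IRE1 and keeps it inactive, moved opposite to Hyou1 in heart iECs: it stood at 71.2, 62.1 and 65.9 CPM in heart fibroblasts and at 50.3, 50.9 and 50.5 in heart iECs (−0.39 ± 0.0821, adjusted p = 0.000581). In lung iECs, at 44.1, 44.0 and 42.3 CPM against 64.6, 65.8 and 68.8 in lung fibroblasts, Dnajb9 fell by 0.61 ± 0.0825 (adjusted p = 5.85e-06), and again no libraries overlapped.

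The promoters of several chaperone genes carry the ER stress response element, whose published form is CCAAT, 9 bases of any kind and CCACG, a site for the factors NF-Y and cleaved ATF6. It was searched for on both strands of RefSeq promoters (GRCm38.p6, from 250 bases before to 50 after the start of transcription), where 33 of the 38 genes had an entry. Several chaperone genes are known to carry the element, so its share among the members is a description and not a test. The element was found in 9 of the 33 (27.3%), against 37 of 27025 genes (0.137%) and 39 of 32851 promoters of all genes (0.119%), members included. They were Hspa5, Hsp90b1 with 2 copies, Calr, Canx, Dnajc3, Creld2, Pdia6, Syvn1 and Derl3, that is 6 of 9 chaperones with an entry, 1 of 4 isomerases, 2 of 6 degradation genes and none of the 14 sensors, collagen genes and ATF4 targets with an entry. A second form, ATTGG, 1 base and CCACG, lay in Dnajb11 and Herpud1 (6.06% of members, 0.0365% of all promoters), and shares its CCACG letters with the first. TGACGTGG, bound by ATF6 and XBP1, was in 0 members and 0.676% of promoters, and TGATGCAA, the amino acid response core, was in Herpud1 and Chac1 (6.06%, against 0.895% of promoters). CCAAT alone lay in 72.7% of members and 37.4% of all promoters, and CCACG alone in 78.8% and 32.8%. The windows show the pair of motifs and the gap between them in 8 of the 9 carriers of the first form, and the other elements in Herpud1 and Chac1. Capitals mark the searched letters, and each run is on the strand of its gene. In Calr, Creld2 and Derl3 the first form lies on the other strand and so reads CGTGG, 9 bases and ATTGG. In Herpud1 ATTGG and CCACG are the second form as searched, and TTGCATCA in Herpud1 and Chac1 is TGATGCAA read from the other strand.
Hspa5, chr2:34772010-34772058, plus strand: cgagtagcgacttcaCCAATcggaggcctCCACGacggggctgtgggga
Calr, chr8:84847060-84847108, minus strand: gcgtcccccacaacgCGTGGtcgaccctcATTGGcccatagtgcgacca
Canx, chr11:50325785-50325833, minus strand: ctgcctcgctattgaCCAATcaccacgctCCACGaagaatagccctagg
Dnajc3, chr14:118937812-118937860, plus strand: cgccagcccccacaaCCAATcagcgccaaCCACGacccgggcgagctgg
Creld2, chr15:88819505-88819553, plus strand: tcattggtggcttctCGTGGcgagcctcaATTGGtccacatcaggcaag
Pdia6, chr12:17266476-17266524, plus strand: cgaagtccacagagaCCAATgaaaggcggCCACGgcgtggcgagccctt
Syvn1, chr19:6046517-6046565, plus strand: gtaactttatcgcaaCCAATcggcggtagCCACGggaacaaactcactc
Derl3, chr10:75893227-75893275, plus strand: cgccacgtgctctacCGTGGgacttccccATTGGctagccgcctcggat
Herpud1, chr8:94386302-94386402, plus strand: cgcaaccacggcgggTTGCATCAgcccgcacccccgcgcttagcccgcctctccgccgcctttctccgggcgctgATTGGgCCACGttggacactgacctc
Chac1, chr2:119351034-119351071, plus strand: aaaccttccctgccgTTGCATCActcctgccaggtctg

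**Figure D3:**
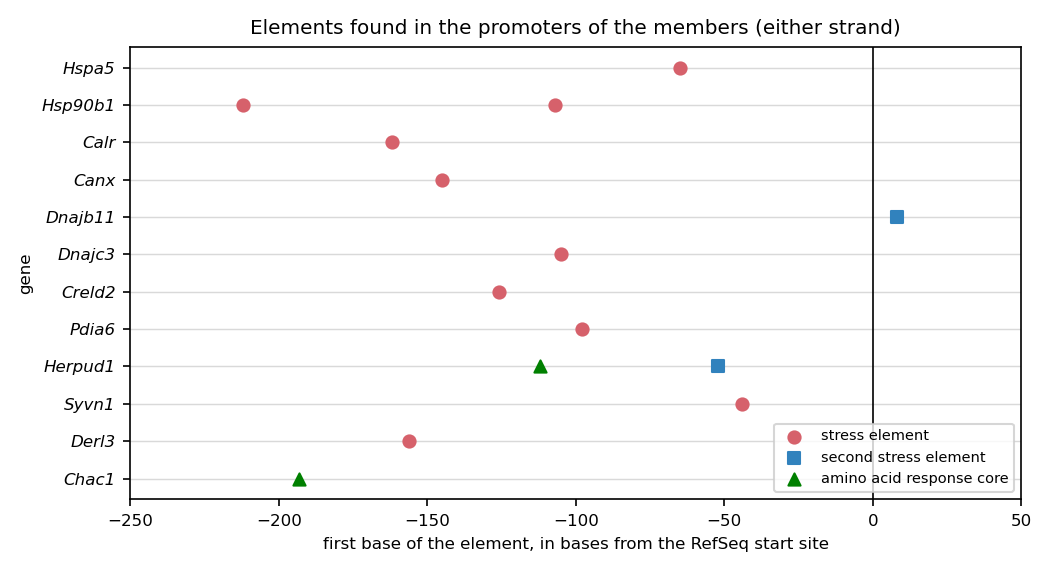
Position of the searched elements in the promoters of members that hold one (horizontal axis, bases from the start of transcription; point shape, kind of element). Most lie in the 250 bases before the start, and the second form in Dnajb11 begins at base 8 after it.

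Members with and without an element are set side by side, as counts only. Of all genes tested, 24.2% were higher and 23.3% lower in heart ECs, and 25.9% and 24.7% in lung iECs. The shares were 29.3% and 28.7% in lung ECs, and 26.0% and 24.6% in heart iECs. In heart ECs against heart fibroblasts, 8 of the 11 members with either form of the stress element were higher and 1 lower (median 0.45), and 14 of the 22 with a promoter entry but no element were higher and 1 lower (median 0.29). In lung iECs against lung fibroblasts, 7 of the 11 were lower and 0 higher (median −0.44), against 15 of 22 lower and 0 higher (median −0.48). In lung ECs the counts were 6 of 11 lower and 0 higher against 14 of 22 lower and 1 higher. In heart iECs they were 2 of 11 higher and 1 lower against 6 of 22 higher and 6 lower. The 16 tested genes outside the set with either form had 3 higher and 4 lower in heart ECs (median 0.03). They had 7 higher and 3 lower in heart iECs, 2 and 8 in lung iECs, and 1 and 8 in lung ECs. The 1 member with an element that was lower in heart ECs was Dnajc3, whose call was lost under library totals (adjusted p = 0.107).

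The 4 disulfide isomerases were higher in lung than in heart fibroblasts in 4 of 4 cases (24.6% of all genes tested). They were lower in both lung iECs and lung ECs than in lung fibroblasts in 4 of 4 (24.7% and 28.7%). In heart ECs 3 of 4 rose (24.2%), and in heart iECs 1 fell and 0 rose (24.6% and 26.0%), where library totals gave 3 higher and 0 lower. Their summed level was 4590 ± 338 CPM in lung fibroblasts (SD, n = 3) and between 2667 and 3891 in the means of the other 5 groups.

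Pdia6 (ENSMUSG00000020571; chromosome 12, 17266589 to 17284785) encodes an isomerase known to dampen IRE1. It stood at 418, 415 and 446 CPM in heart fibroblasts, 432, 448 and 425 in heart iECs and 657, 583 and 628 in heart ECs. Heart iECs overlapped fibroblasts (0.03, adjusted p = 0.827, and 0.21 with adjusted p = 0.0381 under library totals), and heart ECs lay above both, 0.55 ± 0.0923 over fibroblasts (adjusted p = 9.66e-05). In the lung it stood at 927, 777 and 799 CPM in fibroblasts, 415, 378 and 433 in iECs and 438, 520 and 403 in ECs. The fibroblasts lay above every other library of the series, and Pdia6 fell by 1.03 ± 0.093 in lung iECs (adjusted p = 3.68e-08) and by 0.88 ± 0.0927 in lung ECs (adjusted p = 2.11e-07).

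Pdia4 (ENSMUSG00000025823; chromosome 6, 47796141 to 47813512), an isomerase with several thioredoxin-like domains, differed most of the 4 between the fibroblasts of the 2 organs. It stood at 220, 226 and 220 CPM in heart fibroblasts and at 458, 457 and 460 in lung fibroblasts (1.05 ± 0.0917, adjusted p = 2.92e-08). Heart iECs at 251, 265 and 255 CPM lay above heart fibroblasts without overlap and were not called (adjusted p = 0.0606, with 0.000226 in a fit to the 2 groups alone and 0.000455 under library totals). Heart ECs at 411, 308 and 354 CPM were 0.69 ± 0.0912 above fibroblasts (adjusted p = 6.89e-06). Lung iECs, at 254, 236 and 244 CPM, and lung ECs, at 294, 333 and 267, both lay below all lung fibroblasts, by −0.90 ± 0.0913 (adjusted p = 1.65e-07) and −0.62 ± 0.0909 (adjusted p = 1.16e-05).

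P4hb, a disulfide isomerase that is also the beta subunit of the collagen prolyl 4-hydroxylase, fell in iECs of both organs. It stood at 1452, 1567 and 1460 CPM in heart fibroblasts, 1164, 1273 and 1195 in heart iECs and 1622, 1480 and 1511 in heart ECs. The heart iECs lay below both other groups (−0.30 ± 0.078 against fibroblasts, adjusted p = 0.00338, and −0.12 with adjusted p = 0.168 under library totals), and ECs overlapped fibroblasts (adjusted p = 0.682). Lung fibroblasts held P4hb at 1910, 1723 and 1749 CPM, against 919, 900 and 916 in lung iECs and 1136, 1249 and 1009 in lung ECs. No lung groups overlapped, and P4hb fell by 0.98 ± 0.0787 in lung iECs (adjusted p = 8.07e-09) and by 0.67 ± 0.0782 in lung ECs (adjusted p = 8.48e-07).

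The 6 stress sensors and transcription factors did not move as a group. Heart iECs had 2 higher and 2 lower than heart fibroblasts (26.0% and 24.6% of all genes tested), and lung iECs 0 higher and 2 lower (25.9% and 24.7%). Heart ECs had 2 higher and 0 lower (24.2% and 23.3%), and lung ECs 1 higher and 1 lower (29.3% and 28.7%). With 6 genes, a count of 2 lay near these shares. Under library totals the 4 pairs of counts became 3 and 2, 1 and 1, 3 and 0, and 2 and 1. Their summed group means ranged from 547 to 676 CPM. For Ern1 and Xbp1, changes in total RNA say nothing of the spliced form of Xbp1, which IRE1 makes and a gene count does not show.

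Ern1 (ENSMUSG00000020715; chromosome 11, 106397620 to 106487796) encodes the sensor IRE1. It stood at 87.1, 81.9 and 90.7 CPM in heart fibroblasts, 54.0, 52.8 and 54.7 in heart iECs and 126, 112 and 116 in heart ECs. The 3 heart groups did not overlap: iECs lay lowest, at −0.69 ± 0.145 against fibroblasts (adjusted p = 0.000764) and −1.13 ± 0.146 against ECs (adjusted p = 5.46e-06). The rise in heart ECs (0.45 ± 0.144, adjusted p = 0.0169) was not called without heart fibroblast replicate 2 (adjusted p = 0.062) or heart EC replicate 1 (adjusted p = 0.0634). Its lung levels were 42.2, 62.8 and 62.6 CPM in fibroblasts, 53.6, 46.1 and 63.3 in iECs and 117, 117 and 85.1 in ECs. Lung iECs overlapped fibroblasts (−0.04, adjusted p = 0.838), while lung ECs lay above both, 0.93 ± 0.145 over fibroblasts (adjusted p = 3.25e-05), and Ern1 was the 1 gene of the 38 higher in lung ECs.

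Ddit3 encodes CHOP, a transcription factor of prolonged ER stress, and it fell in the iECs of both organs by a like amount. It stood at 68.7, 69.8 and 64.3 CPM in heart fibroblasts and 41.9, 37.8 and 34.7 in heart iECs (−0.83 ± 0.185, adjusted p = 0.00145). In lung fibroblasts it stood at 80.0, 48.7 and 66.2 CPM and in lung iECs at 35.6, 36.4 and 38.8 (−0.81 ± 0.185, adjusted p = 0.00165). The iEC libraries lay below all fibroblast libraries in each organ, and the difference between the 2 changes was 0.01 ± 0.261 (adjusted p = 0.988), an SE that leaves a difference of that order undetermined. Ddit3 in heart ECs spread widely, at 83.2, 44.2 and 62.7 CPM, and lay at 57.0, 57.8 and 63.9 in lung ECs. Heart iECs were below heart ECs (−0.73 ± 0.185, adjusted p = 0.00363), a call that a fit to the 2 groups alone did not make (adjusted p = 0.065), and lung iECs were below lung ECs (−0.69 ± 0.185, adjusted p = 0.00636).

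Eif2ak3, the gene of the sensor PERK, stood at 42.8, 43.5 and 39.9 CPM in heart fibroblasts and 55.7, 57.2 and 58.5 in heart iECs. The heart iECs lay above every other library of the series, 0.44 ± 0.0902 over fibroblasts (adjusted p = 0.000476) and 0.53 ± 0.0903 over heart ECs (adjusted p = 8.38e-05). Xbp1, the factor whose RNA IRE1 splices, was highest in lung fibroblasts, at 185, 158 and 168 CPM, against 113, 111 and 114 in heart fibroblasts (0.59 ± 0.086, adjusted p = 1.53e-05), and it stood at 169, 152 and 140 in heart ECs (0.45 ± 0.0859, adjusted p = 0.000345). Atf6, the third sensor, was called in lung against heart fibroblasts only (−0.29 ± 0.0985, adjusted p = 0.0216), a call lost without lung fibroblast replicate 1 (adjusted p = 0.105), without heart fibroblast replicate 3 (adjusted p = 0.0739) and under library totals (adjusted p = 0.207). Its highest group mean was 1.27 times its lowest. Atf4 rose in lung against heart fibroblasts (0.28, adjusted p = 0.013), but not without heart fibroblast replicate 1 (0.0516) or 3 (0.0501) or lung fibroblast replicate 1 (0.0677). It was not called against fibroblasts of its organ in any group on the TMM scale, although library totals put it 0.36 higher in heart iECs (adjusted p = 0.00161), 0.33 in heart ECs (adjusted p = 0.00421) and 0.25 in lung ECs (adjusted p = 0.0183).

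**Figure D4:**
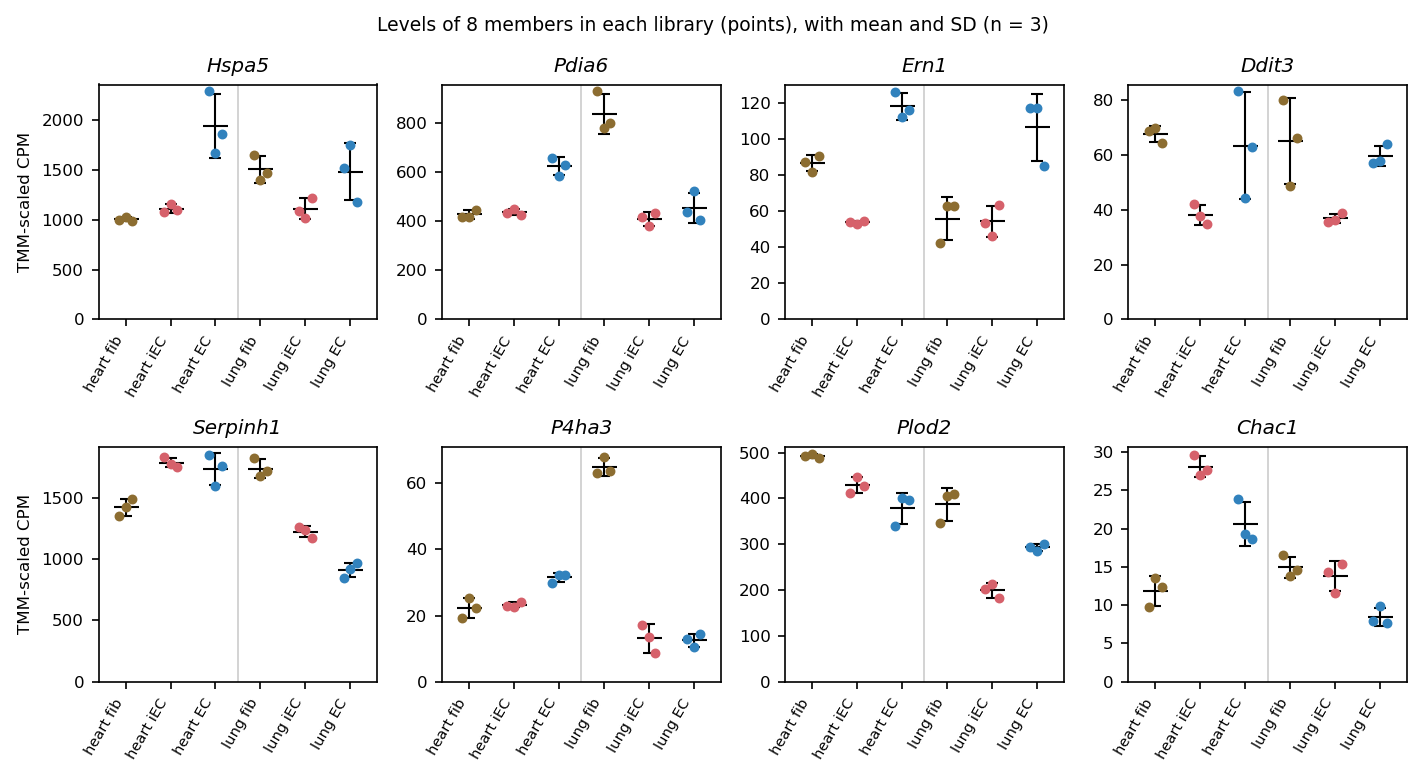
TMM-scaled CPM (vertical axes, from 0) of Hspa5, Pdia6, Ern1, Ddit3, Serpinh1, P4ha3, Plod2 and Chac1 in every library (points), with the mean (bar across) and SD (error bars) of each group of 3. Heart ECs lie above heart fibroblasts and heart iECs for Hspa5 and Ern1, and lung fibroblasts lie above every other library for Pdia6 and P4ha3.

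The 7 genes of ER-associated degradation, against the fibroblasts of their organ, had 2 higher and 1 lower in heart iECs (26.0% and 24.6% of all genes tested). They had 0 and 2 in lung iECs (25.9% and 24.7%), 3 and 1 in heart ECs (24.2% and 23.3%), and 0 and 4 in lung ECs (29.3% and 28.7%). Under library totals the counts were 2 and 1, 1 and 2, 3 and 0, and 1 and 3. Derl1, a channel component of the membrane step, was lower in all 4 of these comparisons on the TMM scale. It stood at 238, 234 and 237 CPM in heart fibroblasts, 150, 154 and 148 in heart iECs and 201, 197 and 205 in heart ECs, groups that did not overlap. The heart changes were −0.65 ± 0.0574 in iECs (adjusted p = 2.65e-08) and −0.23 ± 0.0572 in ECs (adjusted p = 0.00256), the latter −0.12 with adjusted p = 0.121 under library totals. In the lung it stood at 209, 197 and 202 CPM in fibroblasts, 135, 137 and 136 in iECs and 126, 138 and 140 in ECs. Lung iECs and ECs overlapped and lay below fibroblasts, by −0.57 ± 0.0574 (adjusted p = 1.43e-07) and −0.59 ± 0.0574 (adjusted p = 6.94e-08).

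Edem1, which draws misfolded glycoproteins into degradation, rose in heart iECs (107, 116 and 113 CPM in heart fibroblasts, 148, 153 and 150 in heart iECs; 0.43 ± 0.0736, adjusted p = 9.01e-05) with no overlap. The ubiquitin ligase gene Syvn1, which carries the stress element, rose in heart iECs by 0.34 ± 0.0851 (adjusted p = 0.00292) and in heart ECs by 0.45 ± 0.0853 (adjusted p = 0.000284). Sel1l, the partner of this ligase, stood at 226 CPM in lung fibroblast replicate 1 and at 311 and 315 in the other 2, against 259, 266 and 259 in lung iECs. Lung iECs were not called (−0.12, adjusted p = 0.306), and without lung fibroblast replicate 1 they were (adjusted p = 0.000807). Of 8 plasma and B cell markers 1 was tested, and the plasma cell gene Mzb1 was at 0 in every library. Derl3 (ENSMUSG00000009092; chromosome 10, 75893398 to 75895941), a relative of Derl1 known from such secretory cells, was near the limit of the counts, at 0.802, 0.479 and 0.632 CPM in lung fibroblasts and 0.0, 0.245 and 0.208 in lung ECs. The groups did not overlap, but the call (−1.98 ± 0.748, adjusted p = 0.0304) was lost without lung EC replicate 1 (adjusted p = 0.105), lung fibroblast replicate 1 (adjusted p = 0.0798) or lung fibroblast replicate 3 (adjusted p = 0.0601). Derl3 was not called in any other comparison of a pair of groups, though lung against heart ECs passed without heart EC replicate 2 (adjusted p = 0.0344), and its levels were at or below 0.888 CPM in all 18 libraries.

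The collagen chaperone and hydroxylase genes fell together in the lung. All 7 were lower in lung iECs and all 7 in lung ECs than in lung fibroblasts, and all 7 were lower in lung than in heart ECs, under TMM and under library totals alike. Under TMM 24.7%, 28.7% and 23.7% of all genes tested were lower in these comparisons. In the heart the 7 were divided: heart ECs had 4 higher and 2 lower than fibroblasts (24.2% and 23.3% of all genes tested), and heart iECs 1 higher and 3 lower (26.0% and 24.6%). Under library totals these became 5 higher and 2 lower, and 3 higher and 1 lower. Their summed level was 3476 ± 146 CPM in heart fibroblasts (SD, n = 3), 3677 ± 77.7 in heart iECs, 3793 ± 214 in heart ECs and 3806 ± 107 in lung fibroblasts, and dropped to 2381 ± 69.8 in lung iECs and 2134 ± 73.2 in lung ECs. Most fibroblast markers, a list that holds the collagen genes Col1a1, Col1a2 and Col3a1, were lower in the iECs and ECs of both organs. Their counts and sums are given above, and not every named collagen gene was lower in heart iECs. The part of these markers in the results was not tested.

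Serpinh1 encodes HSP47, the collagen chaperone. It stood at 1356, 1427 and 1490 CPM in heart fibroblasts, 1833, 1779 and 1757 in heart iECs and 1855, 1600 and 1764 in heart ECs. Both heart groups lay above fibroblasts without overlap, by 0.33 ± 0.0726 in iECs (adjusted p = 0.000936) and 0.29 ± 0.0726 in ECs (adjusted p = 0.00328). Lung fibroblasts held Serpinh1 at 1827, 1677 and 1721 CPM, against 1263, 1238 and 1177 in lung iECs and 851, 923 and 968 in lung ECs. No lung groups overlapped, and the changes were −0.51 ± 0.0727 in iECs (adjusted p = 1.22e-05) and −0.93 ± 0.0732 in ECs (adjusted p = 4.09e-09).

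P4ha3 (ENSMUSG00000051048; chromosome 7, 100285489 to 100319701) and P4ha2 encode alpha subunits of the collagen prolyl 4-hydroxylase, which fix the enzyme's substrate and activity. P4ha3 had the widest range of the 38, its highest group mean being 5.16 times its lowest. It stood at 63.2, 68.1 and 63.7 CPM in lung fibroblasts, 17.2, 13.4 and 8.64 in lung iECs and 13.0, 10.4 and 14.3 in lung ECs. Lung fibroblasts lay above every other library of the series, and P4ha3 fell by 2.31 ± 0.172 in lung iECs (adjusted p = 4.46e-09) and by 2.37 ± 0.172 in lung ECs (adjusted p = 2.34e-09). In the heart it stood at 19.4, 25.4 and 22.3 CPM in fibroblasts, 23.0, 22.6 and 24.1 in iECs and 29.9, 32.3 and 32.4 in ECs. Heart iECs overlapped fibroblasts (adjusted p = 0.809), and the rise in ECs (0.49 ± 0.166, adjusted p = 0.0212) was lost on leaving out heart fibroblast replicate 1 (adjusted p = 0.0964), heart fibroblast replicate 3 (0.0547), heart EC replicate 2 (0.0539) or heart EC replicate 3 (0.0555).

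P4ha2 (ENSMUSG00000018906; chromosome 11, 54100924 to 54131668) stood at 184, 220 and 199 CPM in heart fibroblasts, 149, 164 and 145 in heart iECs and 302, 273 and 291 in heart ECs, with no overlap. ECs were 0.52 ± 0.126 above fibroblasts (adjusted p = 0.00245). The fall in heart iECs (−0.40 ± 0.126, adjusted p = 0.0133) was lost without heart fibroblast replicate 2 (adjusted p = 0.0665), without heart iEC replicate 3 (adjusted p = 0.0522) and under library totals (adjusted p = 0.125). In the lung it stood at 311, 274 and 290 CPM in fibroblasts, 139, 112 and 166 in iECs and 138, 159 and 114 in ECs. The 2 lower groups overlapped each other and not the fibroblasts, at −1.07 ± 0.127 for iECs (adjusted p = 1.43e-06) and −1.09 ± 0.127 for ECs (adjusted p = 8.86e-07). P4ha1, the most widely expressed alpha subunit, was not called in heart iECs (0.14 ± 0.0754, adjusted p = 0.126) or heart ECs (0.14 ± 0.0754, adjusted p = 0.132), although library totals put it 0.33 higher in iECs (adjusted p = 0.00121) and 0.26 in ECs (adjusted p = 0.00959). P4ha1 fell in lung iECs (−0.76 ± 0.0759, adjusted p = 1.29e-07) and lung ECs (−0.90 ± 0.076, adjusted p = 1.14e-08).

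Of the 3 lysyl hydroxylases, which prepare collagen for cross-linking, Plod1 and Plod2 fell in heart ECs and Plod3 rose. Plod1 (ENSMUSG00000019055; chromosome 4, 147909753 to 147936776) stood at 324, 380 and 358 CPM in heart fibroblasts, 180, 195 and 186 in heart iECs and 256, 239 and 261 in heart ECs. The 3 groups did not overlap, and Plod1 fell by 0.92 ± 0.0772 in iECs (adjusted p = 1.26e-08) and by 0.49 ± 0.0767 in ECs (adjusted p = 3.99e-05). Its lung levels were 255, 270 and 264 CPM in fibroblasts, 135, 126 and 120 in iECs and 164, 171 and 192 in ECs. The order was the same as in the heart, again without overlap, with changes of −1.05 ± 0.0776 in iECs (adjusted p = 2.46e-09) and −0.58 ± 0.0769 in ECs (adjusted p = 3.45e-06).

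Plod2 (ENSMUSG00000032374; chromosome 9, 92539636 to 92608428), which hydroxylates the ends of collagen chains, stood at 493, 497 and 489 CPM in heart fibroblasts, 412, 447 and 428 in heart iECs and 340, 401 and 396 in heart ECs. ECs lay below both (−0.38 ± 0.0823 against fibroblasts, adjusted p = 0.000983). The fall in heart iECs (−0.20, adjusted p = 0.0493) was lost on leaving out any 1 of their 6 libraries (adjusted p from 0.0575 to 0.153) and came to −0.02 under library totals (adjusted p = 0.896). In the lung it stood at 346, 405 and 410 CPM in fibroblasts, 203, 214 and 182 in iECs and 293, 286 and 300 in ECs. No lung groups overlapped: iECs lay lowest, at −0.96 ± 0.0831 (adjusted p = 2.23e-08), and ECs between, at −0.40 ± 0.0824 (adjusted p = 0.000395). Lung iECs also lay below heart iECs (−1.10 ± 0.0833, adjusted p = 7.02e-09), the largest change of Plod2 in any comparison.

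Plod3, which also adds glucose to collagen, stood at 272, 302 and 311 CPM in heart fibroblasts, 327, 351 and 339 in heart iECs and 383, 310 and 348 in heart ECs. Heart ECs overlapped fibroblasts, and their rise (0.23 ± 0.0884, adjusted p = 0.0381) was lost without heart fibroblast replicate 1 (adjusted p = 0.162) or 2 (0.0637) or heart EC replicate 1 (0.201) or 3 (0.0737). Heart iECs lay above fibroblasts without overlap and were not called (0.20 ± 0.0884, adjusted p = 0.0693, with 0.000578 under library totals). In the lung Plod3 stood at 355, 331 and 347 CPM in fibroblasts, 254, 234 and 281 in iECs and 211, 238 and 205 in ECs. Both lower groups lay under all fibroblasts, by −0.43 ± 0.0885 in iECs (adjusted p = 0.000576) and −0.66 ± 0.0888 in ECs (adjusted p = 4.36e-06).

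The 3 ATF4 targets, genes of amino acid supply and of the late stress response, differed from one another. Chac1 (ENSMUSG00000027313; chromosome 2, 119351242 to 119354326), which degrades glutathione, stood at 9.71, 13.5 and 12.4 CPM in heart fibroblasts, 29.6, 27.0 and 27.7 in heart iECs and 23.9, 19.3 and 18.6 in heart ECs. The 3 heart groups did not overlap, and iECs were 1.24 ± 0.143 (adjusted p = 7.68e-07) and ECs 0.80 ± 0.144 (adjusted p = 0.000179) above fibroblasts. That rise in heart iECs was the only change of at least 2-fold among the 38 in this comparison, against 20.1% of all genes tested. In the lung Chac1 stood at 16.5, 13.8 and 14.6 CPM in fibroblasts, 14.3, 11.6 and 15.4 in iECs and 7.93, 9.87 and 7.63 in ECs. Lung iECs overlapped fibroblasts (−0.12, adjusted p = 0.509), and lung ECs lay below both (−0.82 ± 0.146 against fibroblasts, adjusted p = 0.000104).

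Asns, asparagine synthetase, stood at 79.9, 83.6 and 70.6 CPM in heart fibroblasts and rose to 105, 115 and 98.2 in heart iECs (0.44 ± 0.0974, adjusted p = 0.001) and to 113, 94.8 and 99.7 in heart ECs (0.39 ± 0.0976, adjusted p = 0.00288). Lung fibroblasts, at 150, 116 and 125 CPM, lay above all 15 other libraries, and Asns fell in lung iECs by 0.42 ± 0.0969 (adjusted p = 0.00148) and in lung ECs by 0.70 ± 0.0973 (adjusted p = 6.84e-06). Trib3, a pseudokinase that restrains ATF4 and CHOP, did not rise in the heart (−0.23 in iECs, adjusted p = 0.137) and fell in lung iECs, from 43.3, 34.5 and 40.9 CPM in lung fibroblasts to 21.9, 21.8 and 19.2 (−0.92 ± 0.126, adjusted p = 7.56e-06), with no overlap. The exact letters TGATGCAA, shown above, lie in the Chac1 promoter window and in neither of the other 2 targets. Variants of these letters were not searched for, so other forms of the site may be present in those promoters.

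The change of iECs against fibroblasts was itself compared between organs, as was that of ECs against fibroblasts. Each was a difference of differences with the lung change first, between separate groups taken on the same day. For iECs, 22 of the 38 had a more negative change in the lung and 1 a more positive one (12.6% of all genes tested in each direction), with a median difference of −0.60 against −0.02 over all genes. For ECs, 26 were more negative and 0 more positive (18.3% and 16.2%; at an unadjusted p under 0.05, 28 and 1; in DESeq2, 26 and 0), with a median of −0.70 against −0.01. These counts were 23 and 1, and 27 and 0, under library totals, against 1957 and 1746, and 2642 and 2384, of all 14864 genes. Both differences contain the fibroblast levels of the 2 organs, where 21 of the 38 were higher and 7 lower in lung. Both share those libraries, so the 2 counts are not independent and are given side by side.

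P4ha3 had the largest well-counted difference, −2.37 ± 0.238 for iECs (adjusted p = 1.41e-06) and −2.86 ± 0.238 for ECs (adjusted p = 5.34e-08). Among the isomerases, Pdia6 differed by −1.06 ± 0.131 (adjusted p = 9.09e-06) and −1.43 ± 0.131 (adjusted p = 1.21e-07), and Pdia4 by −1.11 ± 0.129 (adjusted p = 4.35e-06) and −1.31 ± 0.129 (adjusted p = 2.81e-07). Serpinh1 rose against fibroblasts in both heart groups and fell in both lung groups, and the difference was −0.84 ± 0.103 for iECs (adjusted p = 8.69e-06) and −1.22 ± 0.103 for ECs (adjusted p = 4.33e-08). Chac1 differed by −1.36 ± 0.201 (adjusted p = 5.96e-05) and −1.61 ± 0.205 (adjusted p = 5.93e-06). For Hspa5 the difference was −0.97 ± 0.179 for ECs (adjusted p = 0.000304), and −0.59 ± 0.178 for iECs (adjusted p = 0.0211), the latter lost without heart iEC replicate 2 (adjusted p = 0.0506), lung fibroblast replicate 1 (0.0608) or lung iEC replicate 2 (0.0536).

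Some members showed no detected difference between organs. Plod1 fell in all 4 groups, and its differences were −0.13 for iECs (adjusted p = 0.426) and −0.09 for ECs (adjusted p = 0.568). Plod2 differed for iECs (−0.76 ± 0.116, adjusted p = 9.5e-05) and had −0.02 for ECs (adjusted p = 0.914). Ern1 was the 1 gene with a more positive lung change in iECs (0.64 ± 0.205, adjusted p = 0.0285). That call was lost without any of 7 libraries, namely heart fibroblast replicates 1 and 3, heart iEC replicates 1, 2 and 3, lung fibroblast replicate 1 and lung iEC replicate 3, with adjusted p from 0.0502 to 0.0812.

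**Figure D5:**
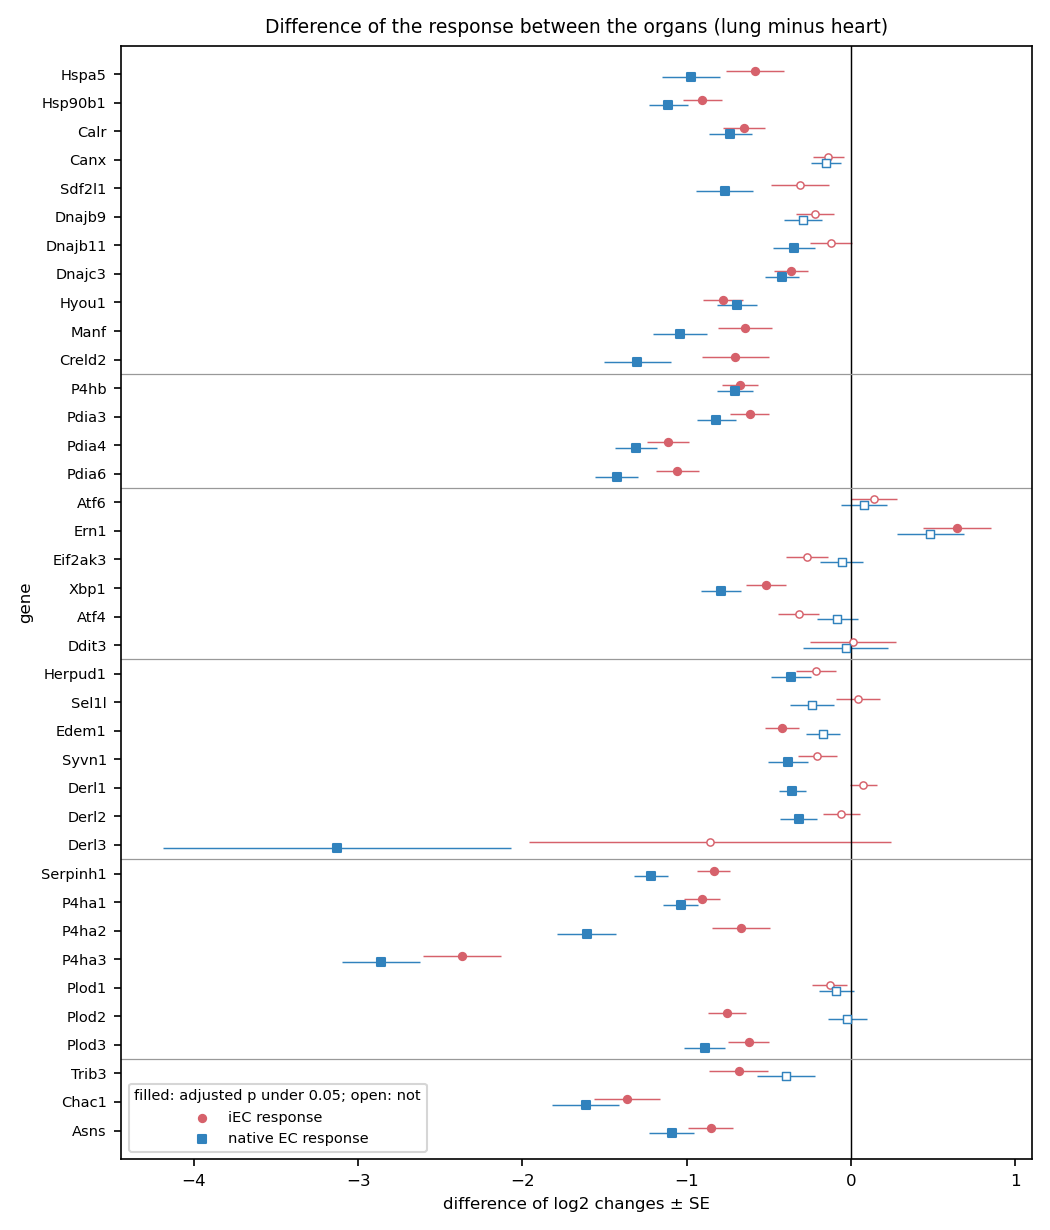
Lung change minus heart change, each against fibroblasts, in log2 (horizontal axis; bars, ± SE) for the 38 genes, for iECs (circles) and ECs (squares); filled points had an adjusted p under 0.05. For iECs 22 filled points lie left of 0 and 1 right of it, and for ECs 26 lie left and 0 right.

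Likeness among members was described by Pearson's r over the 6 group means, points that share libraries, depth and the contrast between organs, so no p is given. The median r over pairs was 0.80 among the isomerases (6 pairs), 0.71 among the collagen genes (21 pairs), 0.64 among the chaperones (55 pairs) and 0.08 among the sensors and factors (15 pairs). Isomerases and collagen genes had a positive r in 28 of 28 pairs, with a median of 0.70. The closest pairs were Serpinh1 and Plod3 (0.99), P4hb and Herpud1 (0.98), Manf and Creld2 (0.98) and Hspa5 and Manf (0.97), and the lowest r was −0.87, between Sdf2l1 and Eif2ak3.

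Other genes of the same pathways were counted from lists chosen by name, with earlier results of these data known. Of all genes tested, 26.0% were higher and 24.6% lower in heart iECs, and 24.2% and 23.3% in heart ECs. The shares were 25.9% and 24.7% in lung iECs, and 29.3% and 28.7% in lung ECs. They stand beside every list count in this paragraph and the next. Of 17 tested genes for other folding and oxidation factors, 9 rose and 2 fell in heart ECs, 7 rose and 3 fell in heart iECs, 2 rose and 12 fell in lung iECs and 0 rose and 12 fell in lung ECs against the fibroblasts of their organ. The 2 that rose in lung iECs, where 12 fell, also rose in heart iECs. Txndc5, a thioredoxin domain protein, rose by 2.47 ± 0.0642 in heart iECs (adjusted p = 2e-15) and 0.93 in lung iECs. Fkbp14, a prolyl isomerase of collagen, rose by 2.16 ± 0.0724 in heart iECs (adjusted p = 5.12e-14) and 2.59 ± 0.0733 in lung iECs (adjusted p = 6.42e-15). Of 22 genes for translocation, signal peptide removal and N-glycan transfer, 14 rose and 1 fell in heart ECs, 9 rose and 3 fell in heart iECs, 1 rose and 13 fell in lung iECs and 2 rose and 15 fell in lung ECs.

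Of 20 further genes for collagen maturation and export, 10 rose and 7 fell in heart iECs, 7 rose and 5 fell in heart ECs, 5 rose and 9 fell in lung iECs and 4 rose and 14 fell in lung ECs. Adamts14, a procollagen N-proteinase, rose in all 4, by 1.79 in heart iECs, 2.35 in heart ECs, 1.55 in lung iECs and 1.04 in lung ECs, while Pcolce, an enhancer of C-propeptide removal, fell in all 4, by 2.0 in heart iECs, 2.79 in lung iECs and 3.84 in lung ECs among them. Of 20 other ATF4 and amino acid response genes, 11 rose and 3 fell in heart iECs (median 0.56), 13 rose and 3 fell in heart ECs (0.46), 5 rose and 10 fell in lung iECs (−0.16) and 4 rose and 12 fell in lung ECs (−0.43). Pycr1, a proline synthesis enzyme, rose by 1.72 ± 0.118 in heart iECs (adjusted p = 8.56e-10) and had −1.39 ± 0.113 in lung ECs (adjusted p = 6.98e-09). Of 12 cytosolic heat shock genes 5 rose and 3 fell in heart iECs, 7 rose and 3 fell in heart ECs, 2 rose and 4 fell in lung iECs and 4 rose and 3 fell in lung ECs. The lung iEC counts lay near the shares of all genes tested, 25.9% and 24.7%. Of 15 other degradation genes 7 rose and 2 fell in heart iECs, 7 rose and 3 fell in heart ECs, 6 rose and 4 fell in lung iECs and 5 rose and 4 fell in lung ECs. Of the 7 fibrillar collagen chains 1 rose and 5 fell in lung iECs and in lung ECs, with Col3a1 at −3.39 ± 0.196 and −4.59 ± 0.207, and 3 rose and 2 fell in heart iECs. Under library totals the counts in lung iECs became 5 higher and 2 lower for the heat shock genes, 6 and 6 for the other ATF4 genes, and 6 and 9 for the translocation genes. Such counts are not given here for the remaining lists and groups, where the median of all genes also shifted with the scaling.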

How the data were processed

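The deposited table holds estimated counts per gene, in whole numbers, for 18 libraries; per the submitters' processing notes the authors used Salmon, DESeq2 and mm10, with no versions, and how transcripts were summed to genes is not given in the sources used here. Of the gene IDs, 305 had no symbol (0.0532% of counts) and went into no list. The second ID of Ddit3 had no count. The members and lists were chosen with earlier results of these data known. Genes named in full are those called with a log2 change of at least 1.0 in size in a comparison of 2 groups; others serve to show a role. From other lists, up to 2 called genes a direction with at least 5.0 CPM were eligible.

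Counts were fitted in R 4.3.3 with edgeR 4.0.16 (robust quasi-likelihood, TMM, filterByExpr keeping 99.97% of counts, 1 coefficient per group, 12 residual degrees of freedom, biological coefficient of variation 0.135). The SE is the log2 change over the square root of F. In data simulated from these libraries for heart iECs against heart fibroblasts (13450 genes), 28 of 60 genes changed 1.5-fold, 72 of 73 changed 2-fold and 11 of 13250 unchanged genes were called. The simulation gave every library the heart fibroblast means and a common dispersion, and changed few genes in heart iECs. In the real comparison 50.7% of genes were called, so these rates need not hold for it. Alternatives were DESeq2 1.42.0, RLE scaling, other count filters, fits to the compared groups alone, a replicate block and leaving out each library; library totals without TMM were added after seeing the data. Promoters were searched with Python 3.11.15. Protein sequences were not analysed here.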

Additional observations from a re-analysis of the deposited data

Results flagged for a closer look

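Changes against fibroblasts that differed between lung and heart, by the test of the difference itself (lung change minus heart change, log2), are listed by role. Both sets of differences rest on the same fibroblast libraries, and no explanation was tested. Among the chaperones, the difference for iECs was −0.59 for Hspa5, −0.91 for Hsp90b1, −0.65 for Calr, −0.37 for Dnajc3, −0.78 for Hyou1, −0.65 for Manf and −0.70 for Creld2. For ECs it was −0.97 for Hspa5, −1.11 for Hsp90b1, −0.73 for Calr, −0.77 for Sdf2l1, −0.35 for Dnajb11, −0.42 for Dnajc3, −0.70 for Hyou1, −1.04 for Manf and −1.30 for Creld2. The isomerases differed for iECs by −0.68 (P4hb), −0.62 (Pdia3), −1.11 (Pdia4) and −1.06 (Pdia6), and for ECs by −0.71, −0.82, −1.31 and −1.43 in the same order.

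Of the sensors and factors, Xbp1 differed by −0.52 for iECs and −0.79 for ECs, and Ern1 by 0.64 for iECs. Of the degradation genes, Edem1 differed by −0.42 for iECs, and Herpud1 by −0.36, Syvn1 by −0.38, Derl1 by −0.36, Derl2 by −0.32 and Derl3 by −3.13 for ECs, the last from fewer than 1 CPM in every library. The collagen genes differed for iECs by −0.84 (Serpinh1), −0.91 (P4ha1), −0.67 (P4ha2), −2.37 (P4ha3), −0.76 (Plod2) and −0.62 (Plod3), and for ECs by −1.22 (Serpinh1), −1.04 (P4ha1), −1.61 (P4ha2), −2.86 (P4ha3) and −0.89 (Plod3). The ATF4 targets differed for iECs by −0.68 (Trib3), −1.36 (Chac1) and −0.85 (Asns), and for ECs by −1.61 (Chac1) and −1.09 (Asns). On leaving out each library in turn, the calls of Hspa5 and Ern1 for iECs and of Dnajb11, Herpud1, Syvn1, Derl2 and Derl3 for ECs were lost at least in 1 case, and the other 21 for each were kept.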

How the results depend on the processing

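No change of the 38 genes reversed while called under DESeq2, RLE scaling, either count filter, fits to the compared groups alone, library totals, the replicate block or any left-out library. The count for heart iECs against fibroblasts went from 18 to 33 in a fit to those groups alone. All genes went from 3868 higher and 3662 lower of 14864 to 4409 and 4354 of 13599. The cause was not tested. On leaving out 1 library the counts were 15 to 16 for heart iECs, 24 to 26 for lung iECs, 26 to 28 for heart ECs and 22 to 25 for lung ECs against fibroblasts, 19 to 22 and 15 to 18 for iECs against ECs in heart and lung, 24 to 27, 11 to 12 and 22 to 28 for lung against heart fibroblasts, iECs and ECs, and 21 to 24 and 21 to 27 for the organ differences of iECs and ECs. Lists summed on library totals moved, as log2 ratios to fibroblasts: chaperones 0.28 in heart iECs and −0.34 in lung iECs; isomerases 0.14, 0.37 (heart ECs) and −0.62; sensors 0.13, 0.31, −0.03 and 0.17 (lung ECs); degradation 0.04, 0.10, −0.04 and −0.15; collagen genes 0.27, 0.24, −0.51 and −0.72; ATF4 targets 0.61 in heart iECs. On the TMM scale the ratios in heart iECs were −0.045 for isomerases, −0.053 for sensors and −0.144 for degradation. Degradation in heart ECs was −0.018 there, so the sign of each of these sums differed between the scales. Per kilobase of exon, degradation in heart iECs was −0.22 and collagen genes 0.18. Deviations from the group means were compared between same-numbered libraries of different groups. Over 45 such pairs r ran from −0.398 to 0.117 (median 0.00563), with 1 pair over 0.1, and 5 of 18 libraries lay closest to their own number. These values cannot show whether same-numbered libraries were handled together. The replicate block gave 18 calls for heart iECs, 25 for lung iECs, 27 for heart ECs and 23 for lung ECs. At this depth, with 3 libraries a group, changes of 1.5-fold or less can be missed.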
